A study of Mus musculus and Mus spretus with 18 samples.

Results

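The choroid plexus marker genes are 6 genes that are commonly used to recognise the epithelium of the choroid plexus: Ttr, Folr1, Clic6, Aqp1, Otx2 and Kl. They were given as a list of Ensembl IDs, and 5 of the 6 had a row among the 12346 genes of the value table. Kl, which encodes klotho, the co-receptor for the hormone FGF23, had no row and is not described further. The members were listed by name, with no threshold on their values in these arrays. Gene expression was measured in the brains of 18 male mice, 1 array per animal, in 6 groups of 3. Musculus stands for Mus musculus of the strain WSB/EiJ and spretus for Mus spretus of the strain SPRET/EiJ. Both were bred in 1 facility under standard conditions, and no group carried a transgene or received a treatment. Newborns (day 0), pups (day 14) and young adults (day 56) were sampled in each species. The whole brain minus the olfactory bulb was taken, so the choroid plexus was a small part of each sample.

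The choroid plexus is a folded epithelium over a vascular core that hangs in the brain's ventricles. It secretes cerebrospinal fluid, moves ions, water, folate and hormones between blood and fluid, and forms the blood-cerebrospinal fluid barrier. It develops before birth and is in place in newborn mice, while the brain around it goes on growing for weeks. In a sample of whole brain, fewer cells of a type and less RNA per cell cannot be told apart.

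The values are log2 expression levels on a 1-colour Affymetrix array, normalized by the authors, so a difference of 1 is a 2-fold difference. All tests of a difference in level came from 1 linear model over the 18 arrays and all 12346 genes (limma). A change was called at a Benjamini-Hochberg adjusted p under 0.05. Whether the arrays of compared groups overlapped is given as a description, and the share of all genes without overlap was not counted. The arrays of a group correlated across genes with r of 0.9918 to 0.9956, and the array medians lay between 6.52 and 6.56. The files do not pair Ensembl IDs with gene names, and 0 IDs could be matched to the reference gene table. Other markers of choroid plexus, ependyma, meninges, pituitary, blood or brain could therefore not be set beside the members. The name choroid plexus rests on the 6 listed genes alone. All 6 group means of each of the 5 measured members lay above 4.76, the limit of the dimmest 25% of genes by mean level.

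From birth to day 14 all calls among the members were falls, and from day 14 to day 56 all were rises. Changes that were not called did not all share that direction. Clic6 changed by 0.10 in musculus and 0.13 in spretus in the first step. Aqp1 changed by -0.21 and Otx2 by -0.03 in musculus in the second. All other changes without a call had the direction of the calls. In the first step 0 of 5 members were called as risen in either species. Of all genes, 19.6% were called as risen in musculus and 19.2% in spretus. Aqp1 and Otx2 fell in musculus, and Ttr, Aqp1 and Otx2 fell in spretus, where 21.8% and 20.3% of all genes were called as fallen. The median log2 change of the 5 members was -0.35 in musculus and -0.34 in spretus, against -0.00 and 0.03 over all genes. In the second step 0 of 5 were called as fallen, against 6.82% of all genes in musculus and 4.16% in spretus. Ttr and Clic6 rose in musculus and Ttr, Clic6 and Otx2 in spretus, against 5.08% and 3.98% of all genes called as risen. The median log2 change of the members in that step was 0.30 and 0.50, against 0.02 and -0.01 over all genes. Whether the counts of members called differ from these shares of all genes was not tested. Both steps of a species use the same day 14 arrays, so a low pup array lowers the first step and raises the second.

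**Figure D1:**
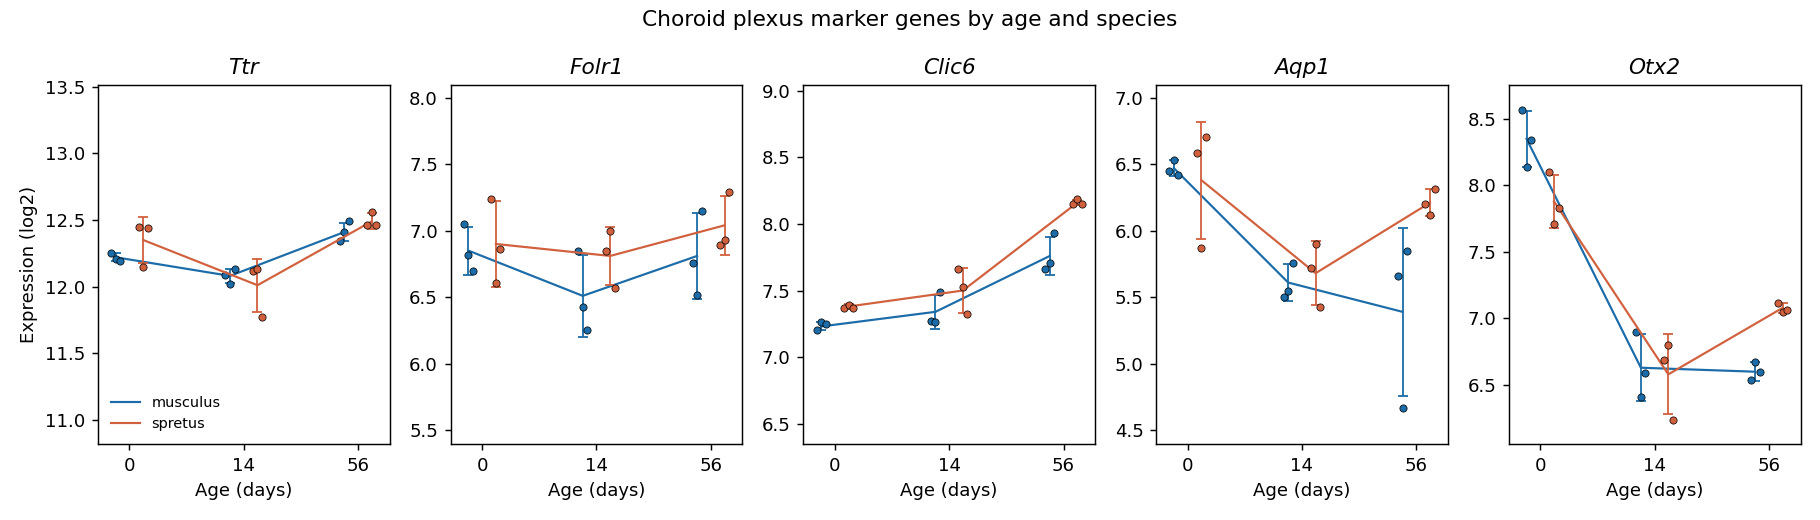
Expression (log2) of the 5 measured members against age in days, with the ages evenly spaced and not to scale; points are single arrays, lines join group means and bars are the SD (n = 3), in blue for musculus and orange for spretus, and every panel spans the same log2 range. The mean of Otx2 dropped between the newborns and the pups, from 8.35 to 6.63 (musculus) and from 7.88 to 6.58 (spretus), Clic6 was highest at day 56 in both species, and 1 musculus array at day 56 had Aqp1 at 4.67.

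Ttr (ENSMUSG00000061808) encodes transthyretin, the carrier of thyroxine and of retinol-binding protein that the choroid epithelium secretes into the cerebrospinal fluid. Its log2 levels were close to the top of the table, whose highest value was 13.82. The 3 musculus newborns had Ttr at 12.25, 12.21 and 12.19, the pups at 12.09, 12.02 and 12.13, and the adults at 12.34, 12.41 and 12.49. The spretus newborns had 12.45, 12.15 and 12.44, the pups 12.12, 12.13 and 11.77, and the adults 12.46, 12.56 and 12.46. In both species every pup lay below every newborn and every adult, and every adult lay above every newborn. In spretus the lowest adult, at 12.46, was barely above the highest newborn, at 12.45.

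The Ttr difference from day 0 to day 14 was -0.14 ± 0.10 in musculus (log2, SE; limma, adjusted p = 0.299) and -0.34 ± 0.10 in spretus (adjusted p = 0.0106). From day 14 to day 56 Ttr rose by 0.34 ± 0.10 in musculus (adjusted p = 0.0346), or 1.26-fold, and by 0.48 ± 0.10 in spretus (adjusted p = 0.00632), or 1.40-fold. Over the whole course from day 0 to day 56 its difference was 0.20 (95% interval -0.01 to 0.41) in musculus and 0.14 (-0.07 to 0.35) in spretus, and neither was called. The spretus fall was not called without spretus day 14 replicate 3, the pup at 11.77 (-0.22, adjusted p = 0.0777), without spretus day 0 replicate 1 (adjusted p = 0.0544) or with the 6 arrays fitted alone (adjusted p = 0.0660). The musculus rise was lost whenever 1 of its 6 arrays was left out (adjusted p from 0.0502 to 0.113), with those arrays fitted alone (adjusted p = 0.0594) and with the replicate number as a block (adjusted p = 0.0502).

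Clic6 (ENSMUSG00000022949) encodes a member of the chloride intracellular channel family. It was measured at 7.20, 7.26 and 7.25 in the musculus newborns, 7.27, 7.26 and 7.49 in the pups and 7.66, 7.71 and 7.93 in the adults. In spretus the newborns had 7.37, 7.39 and 7.37, the pups 7.66, 7.53 and 7.32, and the adults 8.15, 8.19 and 8.15. Adults stood above pups and newborns without overlap in both species, whereas pups and newborns overlapped.

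Clic6 was the 1 member called as higher at day 56 than at day 0, by 0.53 ± 0.09 in musculus (limma, adjusted p = 0.000120) and 0.79 ± 0.09 in spretus (adjusted p = 1.68e-06). These are 1.44-fold and 1.72-fold rises, beside 22.3% and 20.6% of all genes called as higher. Only the step after day 14 was called, at 0.43 ± 0.09 in musculus (limma, adjusted p = 0.00620) and 0.66 ± 0.09 in spretus (adjusted p = 0.000368). The musculus call was lost with its arrays fitted alone (limma, adjusted p = 0.0548). Before day 14 the differences were 0.10 (95% interval -0.09 to 0.30) and 0.13 (-0.07 to 0.32). Whether the earlier and later steps differ was not tested.

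Folr1 (ENSMUSG00000001827) encodes folate receptor alpha, through which the choroid epithelium carries folate toward the cerebrospinal fluid. The musculus newborns had log2 levels of 7.05, 6.82 and 6.70, the pups 6.85, 6.43 and 6.25, and the adults 6.76, 6.52 and 7.15. The spretus newborns had 7.24, 6.61 and 6.86, the pups 6.85, 7.00 and 6.57, and the adults 6.89, 6.93 and 7.29. All groups that were compared overlapped.

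Folr1 was called in none of the comparisons by limma, and none of its unadjusted p-values was under 0.05. Its log2 difference from day 0 to day 14 was -0.35 (95% interval -0.75 to 0.06; adjusted p = 0.172) in musculus and -0.10 (-0.50 to 0.31; adjusted p = 0.731) in spretus. The later step gave 0.30 (-0.10 to 0.70) and 0.23 (-0.17 to 0.64). The musculus interval of the later step holds the Clic6 rise of 0.43 in that step, and the spretus interval ends just under the Clic6 rise of 0.66. Without musculus day 14 replicate 1, the highest of the pups, the musculus fall was -0.52 and was called (adjusted p = 0.0491).

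Aqp1 (ENSMUSG00000004655) encodes aquaporin-1, the water channel of the ventricular face of the choroid epithelium. The musculus newborns lay close together at 6.45, 6.53 and 6.42, and the pups at 5.50, 5.55 and 5.76. The musculus adults had 5.66, 4.67 and 5.85, and the 4.67 is under the 4.76 that bounds the dimmest 25%. In spretus the newborns had 6.58, 5.87 and 6.70, the pups 5.72, 5.90 and 5.43, and the adults 6.20, 6.12 and 6.31. Newborns stood above pups without overlap in musculus, while in spretus the newborn at 5.87 lay below the highest pup.

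Aqp1 fell by 0.86 ± 0.24 from day 0 to day 14 in musculus (limma, adjusted p = 0.00690), a 1.82-fold difference, and in spretus the log2 change was -0.70 ± 0.24 (adjusted p = 0.0258). The spretus fall was not called when spretus day 0 replicate 1 or 3 or spretus day 14 replicate 1 or 3 was left out (adjusted p = 0.0983, 0.120, 0.0508 and 0.105). After day 14 the paths were not called: -0.21 (95% interval -0.72 to 0.29) in musculus and 0.53 (0.03 to 1.03; adjusted p = 0.193) in spretus. The spretus adults all lay above the spretus pups, and the rise was called with the 6 arrays fitted alone (adjusted p = 0.0494). Against newborns, Aqp1 in musculus adults had a log2 difference of -1.07 ± 0.24 (2.11-fold lower; adjusted p = 0.00110), and of -0.71 with the adult array at 4.67 left out, which was still called. At this span 23.7% of all genes were called as lower in musculus and 22.0% in spretus. In spretus adults the log2 difference from newborns was -0.17 (-0.67 to 0.33; adjusted p = 0.619).

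Otx2 (ENSMUSG00000021848) encodes a homeodomain transcription factor that is needed to form and keep the choroid plexus. It is also active in other cells, among them the developing midbrain and precursors of cerebellar granule neurons. Its log2 levels in the musculus newborns were 8.57, 8.14 and 8.34, in the pups 6.90, 6.41 and 6.59, and in the adults 6.54, 6.67 and 6.60. In spretus they were 8.10, 7.71 and 7.83 in newborns, 6.69, 6.80 and 6.24 in pups, and 7.12, 7.05 and 7.06 in adults. Newborns stood far above the later ages in both species, and spretus adults stood between their newborns and pups without touching either.

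Otx2 had the largest changes of the 5 members from birth to day 14, a 3.29-fold fall in musculus (-1.72 ± 0.15; limma, adjusted p = 4.12e-08) and a 2.47-fold fall in spretus (-1.30 ± 0.15; adjusted p = 1.33e-06). Of all genes, 2.06% and 3.47% had a larger change in either direction in that step. The falls were called in all 25 alternatives in which Otx2 was tested. Otx2 has a masked probe, so it was not tested with genes with no masked probe alone. From day 14 to day 56 the difference was -0.03 (95% interval -0.34 to 0.28) in musculus and 0.50 (0.19 to 0.81; adjusted p = 0.0456) in spretus. The spretus rise sat at the threshold and was lost in 12 of 25 alternatives, with a value of 0.33 without spretus day 14 replicate 3, the pup at 6.24.

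**Figure D2:**
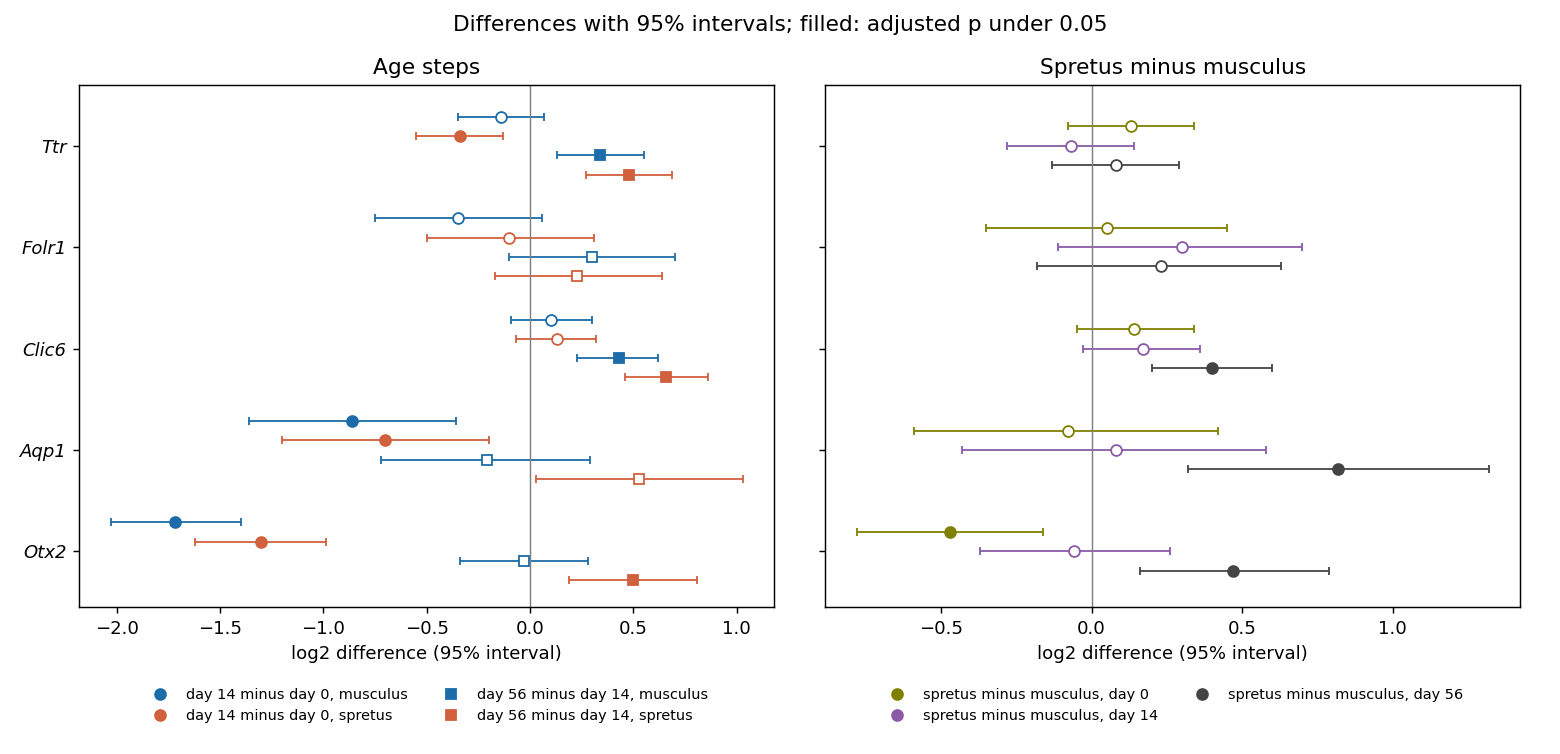
Log2 difference of each member for the age steps (left) and between the species at each age (right), with 95% intervals from limma; filled symbols passed an adjusted p of 0.05. The Otx2 differences of -1.72 and -1.30 stand apart from the other age changes. At day 56 all 5 members lie to the right of 0, with filled symbols for Clic6, Aqp1 and Otx2. Ttr at 0.08 and Folr1 at 0.23 have open symbols there.

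For Otx2 and Aqp1, 1 promoter window each is shown. They are the 2 members that fell in both species and had promoter sequence in the table used. Sequences are from RefSeq on build GRCm38.p6 (strain C57BL/6J, neither of the strains measured), from 250 bases before to 50 after a start. Capitals mark the letters TAATCC or their reverse complement GGATTA, the core that Otx-type homeodomains bind. This core is in 7.06% of 32851 promoter windows. Of 4 Otx2 windows 1 holds it, beginning 211 bases before the start, and the Aqp1 window holds none. The Otx2 window shown was picked because it holds the core, and the windows at the other Otx2 starts are not shown. A forkhead core, GTAAACA on either strand, is in 3.65% of windows and in 0 of these. Expression by start site was not measured, and a match of letters is a description only.
Otx2, chr14:48665060-48665359, minus strand: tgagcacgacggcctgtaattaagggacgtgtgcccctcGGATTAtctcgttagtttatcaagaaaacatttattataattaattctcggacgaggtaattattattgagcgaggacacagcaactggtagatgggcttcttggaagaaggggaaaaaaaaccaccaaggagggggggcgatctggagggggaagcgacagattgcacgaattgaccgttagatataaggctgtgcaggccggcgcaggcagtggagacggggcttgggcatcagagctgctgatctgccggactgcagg
Aqp1, chr6:55336049-55336348, plus strand: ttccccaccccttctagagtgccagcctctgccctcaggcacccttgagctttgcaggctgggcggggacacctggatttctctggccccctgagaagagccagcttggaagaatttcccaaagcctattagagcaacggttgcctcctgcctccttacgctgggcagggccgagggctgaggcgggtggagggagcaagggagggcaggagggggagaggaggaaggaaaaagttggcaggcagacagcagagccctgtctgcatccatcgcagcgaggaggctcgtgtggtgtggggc

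Between the species, 1 member was called at birth, 0 at day 14 and 3 in adults. At day 0 Otx2 alone was called, lower in spretus (log2 difference -0.47 ± 0.15; limma, adjusted p = 0.0418), where 6.90% of all genes were called as lower. Every spretus newborn lay below every musculus newborn, but the call was lost in 9 of 25 alternatives, among them musculus day 0 replicate 1 left out (-0.36, adjusted p = 0.168) and spretus day 0 replicate 2 left out (-0.39, adjusted p = 0.165). At day 14 limma called 0 of 5 members, while 13.1% of all genes were called in either direction. Of the 5 members, 0 had an unadjusted p under 0.05 at that age. At day 56 Clic6, Aqp1 and Otx2 were higher in spretus and 0 members were lower, where 7.59% of all genes were called as higher. In either direction 1770 genes were called at day 0, 1622 at day 14 and 1765 at day 56. The 1 call at day 0 and the 0 at day 14 therefore do not set the 5 members apart from all genes. Whether the 3 calls at day 56 do was not tested. The median log2 difference of the members at the 3 ages was 0.05, 0.08 and 0.40, against 0.02, 0.03 and 0.01 over all genes.

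Among the adults, Clic6 was higher in spretus by 0.40 ± 0.09 (1.32-fold; limma, adjusted p = 0.00779) and was called in all alternatives in which it was tested. Aqp1 was higher by 0.82 ± 0.24 (1.76-fold; adjusted p = 0.0280). That size leans on the musculus adult at 4.67, and without it the difference was 0.46 (adjusted p = 0.144). The call was also lost without spretus day 56 replicate 1, 2 or 3 (adjusted p = 0.0652, 0.0546 and 0.0881) and with the 6 arrays alone (0.0704). Otx2 was higher by 0.47 ± 0.15 (1.39-fold; adjusted p = 0.0411), and its call was lost whenever 1 of the 6 adult arrays was left out (adjusted p from 0.0712 to 0.112). For all 3 genes every spretus adult lay above every musculus adult, which describes the same 6 arrays and adds no support to the calls. Ttr differed by 0.08 (95% interval -0.13 to 0.29) and Folr1 by 0.23 (-0.18 to 0.63) at this age.

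Otx2 thus had opposite species differences at birth and in adults, and the change itself was tested. Over days 0 to 56 the Otx2 change was -1.74 (musculus) and -0.80 (spretus), and the latter was higher by 0.94 ± 0.21 (limma, 95% interval 0.50 to 1.38, adjusted p = 0.0265). This contrast was added after the opposite differences had been seen and is made of them, so it is no independent evidence of them. In it 2.29% of all genes were called, or 283, and 112 without musculus day 0 replicate 3. With 1 array left out the difference was 0.83 to 1.05, and the call was lost in 9 of 25 alternatives, each of them 1 array left out, with adjusted p from 0.0513 to 0.0707. The same contrast gave 0.90 (0.19 to 1.61) for Aqp1, which was not called (adjusted p = 0.193) and was 0.54 without musculus day 56 replicate 2, the adult at 4.67. Within single steps limma called 0 of 5 members for a difference in change, beside 1.11% of all genes in the first step and 0.0405% in the later one. Of the members, 0 had an unadjusted p under 0.05 in the first step. In the later one 2 had, Aqp1 (0.74 ± 0.34, adjusted p = 0.445) and Otx2 (0.53 ± 0.21, adjusted p = 0.378). The share of all genes with an unadjusted p under 0.05 was not counted. Without musculus day 56 replicate 2 the later Aqp1 value was 0.38.

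The order of the 6 groups differed from gene to gene. Ttr, Folr1 and Clic6 were highest in spretus adults, with means of 12.49, 7.04 and 8.16. Aqp1 and Otx2 were highest in musculus newborns, at 6.47 and 8.35. Neighbours in the order that did not overlap were spretus and musculus adults for Clic6, spretus adults and spretus pups for Aqp1, and musculus newborns and musculus pups for Ttr. For Otx2 they were the 3 upper steps, from musculus newborns to spretus newborns, to spretus adults and to musculus pups. All other neighbours overlapped, and for Folr1 none was separate.

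The spread between replicates differed among the members. Aqp1 had a pooled within-group SD of 0.34, larger than that of 99.2% of all genes, and Folr1 one of 0.27, larger than 95.7%. Among the 500 genes closest in mean level, the SD of Aqp1 was larger than 98.6%, that of Folr1 than 96.0%, that of Otx2 (0.20) than 89.8% and that of Ttr (0.12) than 83.8%. The SD of Clic6 (0.11) was larger than that of 25.8% of its neighbours. Over genes of all levels, the SD of Otx2 was larger than that of 81.4%, that of Ttr than 33.7% and that of Clic6 than 25.6%. In Folr1, 65.1% of the variance over the 18 arrays lay within groups, against 30.8% in Aqp1, 23.2% in Ttr, 7.04% in Clic6 and 5.26% in Otx2.

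**Figure D3:**
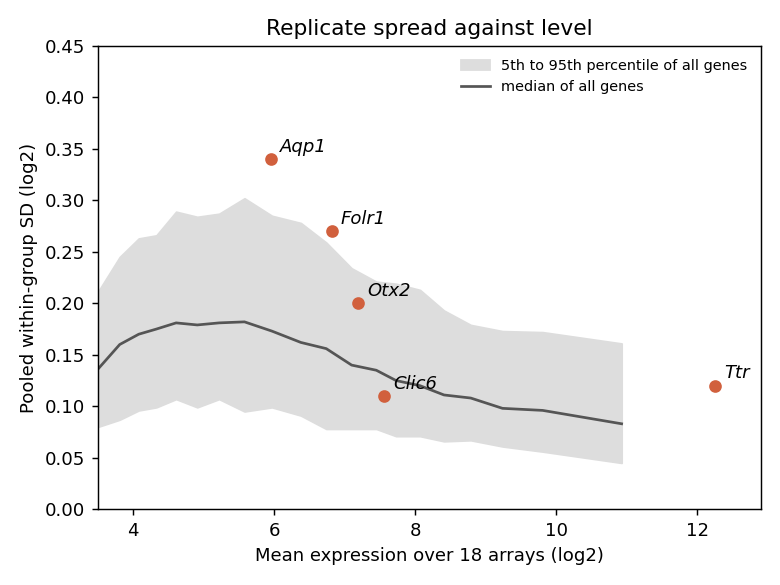
Pooled within-group SD (log2) against mean expression over 18 arrays (log2); the line is the median and the band the 5th to 95th percentile of all 12346 genes in 20 bins of level, drawn at each bin's median level, and points are the 5 members. Aqp1 at 0.34 and Folr1 at 0.27 lie above the band, and Clic6 at 0.11 lies below the median.

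In some animals several members were low or high together. The arrays named here were picked for their deviations, and the share of all genes lowest or highest in them was not counted. In spretus day 14 replicate 3 all 5 members were the lowest of their group, with deviations from the group mean of -0.18 to -0.34. In spretus day 0 replicate 2, Ttr, Folr1, Aqp1 and Otx2 were the lowest, at -0.20, -0.29, -0.51 and -0.17, while Clic6 stood at 0.02. In musculus day 56 replicate 3, Ttr, Folr1, Clic6 and Aqp1 were the highest, at 0.07, 0.34, 0.16 and 0.45. In musculus day 56 replicate 2 Aqp1 deviated by -0.72 and Folr1 by -0.29, while Ttr, Clic6 and Otx2 stood at -0.00, -0.06 and 0.07. The mean deviation of the 5 members spanned 0.40 to 0.41 in spretus newborns, spretus pups and musculus adults, and 0.09 in spretus adults.

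**Figure D4:**
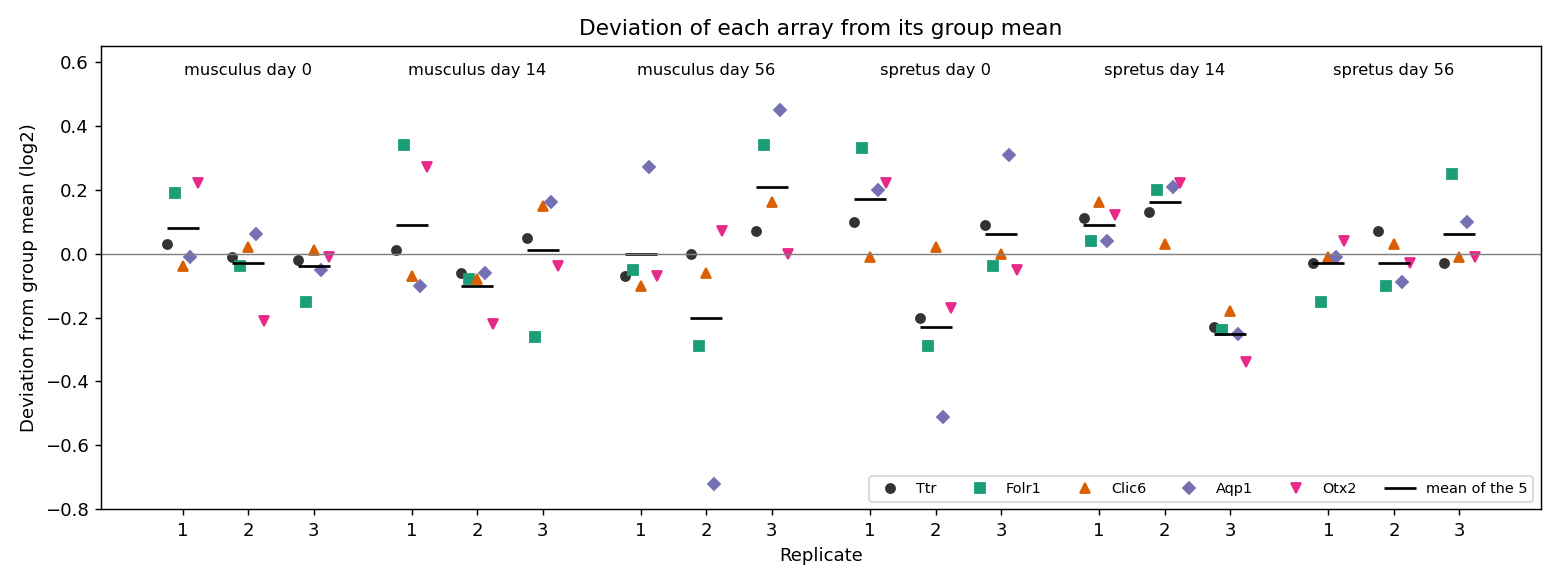
Deviation of each of the 18 arrays from its group mean (log2) for the 5 members, with the replicate number on the horizontal axis and a black bar for the mean of the 5. In spretus day 14 replicate 3 all 5 symbols lie below 0, and the symbol at -0.72 is Aqp1 in musculus day 56 replicate 2.

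Whether the arrays with low members were of poor precision was looked at through limma's array weights, which estimate each array's precision over all genes and ran from 0.710 to 1.51. Spretus day 14 replicate 3 had a weight of 1.28 and spretus day 0 replicate 2 the highest, 1.51. Musculus day 56 replicate 2 had the lowest, 0.710. The medians of these 3 arrays were 6.52, 6.53 and 6.54. The labels say no more of the dissection than that the olfactory bulb was left out, and the part that dissection had in the spread was not tested.

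Across all 18 arrays the deviations of the members were positively correlated in 10 of 10 pairs, but no pair passed the correction for 10 tests. Pearson's r ran from 0.16 to 0.68 with a median of 0.53. The exact permutation test exchanged arrays within their own groups, with 46656 arrangements, and was two-sided. Ttr and Otx2 had r of 0.68 (exact permutation p = 0.0162, adjusted 0.0922) and rho of 0.64 (p = 0.0193, adjusted 0.149). Folr1 and Otx2 had r of 0.62 (exact permutation p = 0.0184, adjusted 0.0922) and rho of 0.53 (p = 0.0610, adjusted 0.153). Ttr and Clic6 had r of 0.60 (exact permutation p = 0.0378, adjusted 0.126) and rho of 0.62 (p = 0.0298, adjusted 0.149). The 7 other pairs had exact permutation p-values of 0.0557 or more for r. The sign of 2 of these pairs turned with 1 array left out. Folr1 and Clic6 had r of 0.16 with all arrays, -0.11 when musculus day 56 replicate 3 was left out and -0.04 when spretus day 14 replicate 3 was. Clic6 and Otx2 had 0.24 with all arrays, -0.19 without spretus day 14 replicate 3 and 0.00 without both of these arrays.

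Without spretus day 0 replicate 2 and spretus day 14 replicate 3, the arrays farthest from the median of Ttr, r was 0.48 for Ttr and Otx2, 0.59 for Ttr and Clic6, 0.33 for Ttr and Folr1 and 0.31 for Ttr and Aqp1. With all arrays the last of these pairs had 0.52 and 0.54. For Folr1 and Otx2 r was 0.61 without the arrays farthest from the median of Folr1, musculus day 14 replicate 1 and musculus day 56 replicate 3. Within the 9 musculus arrays r of Ttr and Otx2 was 0.41 and within the 9 spretus arrays 0.86, and for Ttr and Aqp1 the values were 0.21 and 0.83. For Ttr and Clic6 the order was the other way, with 0.80 in musculus and 0.65 in spretus. In musculus r was below 0 for Clic6 and Otx2 (-0.13, against 0.64 in spretus) and for Aqp1 and Otx2 (-0.25, against 0.68). Whether the species differ in this was not tested.

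As a description over all genes, each member was ranked by the correlation of its deviations with the mean deviation of the other 4. Ttr ranked 17 of 12342 genes with r of 0.75, Folr1 38 with 0.69, Aqp1 335 with 0.54, Otx2 457 with 0.50 and Clic6 1029 with 0.40. The deviations share arrays and their normalization, and no p-value is attached. By the same measure against the mean of all 5, the genes most like the members were ENSMUSG00000035273 (r of 0.89 over 18 arrays) and ENSMUSG00000018920 (0.85). Their group means, from 3.99 to 4.54 and from 4.39 to 4.60, lay among the dimmest 25%. By levels rather than deviations, the genes most like the mean of the 5 members were ENSMUSG00000042942 (r of 0.89 over 18 arrays) and ENSMUSG00000026309 (0.88). The group means of the former at days 0, 14 and 56 were 7.09, 6.40 and 6.69 for musculus and 7.10, 6.53 and 6.83 for spretus. The files do not name these IDs.

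The authors masked 19 probes of Ttr, 1 each of Clic6, Aqp1 and Otx2, and 0 of Folr1, and 5 probes were listed for Kl. The reason for masking is not given in the sources used here, and its part in the species differences was not tested.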

How the data were processed

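Biotinylated cRNA made from the total RNA of 1 brain went on each Affymetrix MG-430 2.0 array, per the labels' protocols. The deposited table holds 1 log2 value per Ensembl gene and array, already normalized by the authors; base 2 was inferred from the range of 2.89 to 13.82, and background correction, summarisation, normalization method and gene filter were not given in the sources used here. Precision is limited by the number of arrays. A deposited list of 46864 masked probes, by position on the array, was used only for counts of masked probes per gene and to leave out genes. Symbols of the 6 members came with the list of members; the reference table held 49997 genes and 0 Ensembl IDs, so the 7 other gene lists were not used.

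Means of the 6 groups were fitted to all 18 arrays and 12346 genes with limma 3.58.1 in R 4.3.3 (lmFit, contrasts.fit, eBayes; two-sided; 17.1 degrees of freedom after moderation), with Benjamini-Hochberg adjustment over all genes within a comparison. Simulated data for day 14 against day 0 in musculus had independent normal noise over 12346 genes, with 50 genes changed at each size. A change of 0.5 was recovered in 60.0% of the genes that had it and a change of 1 in 100%, with 4.26% false calls. In the measured data 5110 genes were called in this comparison, so these rates need not hold there. Within-group deviations were compared by exact permutation in Python 3.11.15 (numpy 2.4.6). All 6 members were named, and other genes by the 2 highest correlations. The labels call each sample an individual, and they give no batch or date. The members, lists and tests were chosen with earlier results of these data known. Alternatives were quantile normalization, median centring, a filter on dim genes, the arrays of a contrast alone, array weights, a trended robust prior, genes with no masked probe, a replicate block, the linear scale and 1 array left out.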

Additional observations from a re-analysis of the deposited data

Results flagged for a closer look

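The course of Otx2 over days 0 to 56 was unlike in the species, by 0.94 ± 0.21 on the log2 scale (spretus change of -0.80 minus musculus change of -1.74; limma, adjusted p = 0.0265). It is listed because the difference in change passed its test, but that contrast was added after the opposite species differences at birth and in adults had been seen, and it equals the adult difference minus that at birth, so it is no support for them. Every spretus newborn lay below every musculus newborn, at 8.10, 7.71 and 7.83 against 8.57, 8.14 and 8.34, and all 3 spretus adults lay above the musculus adults. Over the 25 alternatives the adjusted p ran from 0.0125 to 0.0707.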

How the results depend on the processing

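No comparison of a member reversed a call. With 1 array left out, the members called lay between 2 and 3 (musculus) and 1 and 3 (spretus) for day 14 against day 0, 1 and 2 and 2 and 3 for day 56 against day 14, and stayed at 3 and 2 for day 56 against day 0. Between the species they lay between 0 and 1 at day 0, stayed at 0 at day 14 and lay between 1 and 3 at day 56. For differences in change they stayed at 0 in both steps and lay between 0 and 1 over days 0 to 56. As reported for day 56 against day 0, 22.3% of all genes were called as higher and 23.7% as lower in musculus. In spretus these shares were 20.6% and 22.0%. The steady 3 and 2 of 5 members in that comparison therefore do not set the members apart from all genes. With the arrays of the contrast alone, 0 members were called for day 56 against day 14 in musculus (2 as reported) and 0 between the species at day 0 (1 as reported). Genes called over the whole table fell there from 1469 to 746 and, in spretus, from 1004 to 645, from 1622 to 993 between the species at day 14, and from 137 to 62 and 5 to 1 for the differences in change. With 1 array left out, genes called over the whole table fell as low as 535 for day 56 against day 14 in spretus, 1052 between the species at day 14 and 63 for the difference in change over days 0 to 14, each without spretus day 14 replicate 2. The differences in change over days 14 to 56 and 0 to 56 fell from 5 to 3 (without spretus day 56 replicate 1) and from 283 to 112 (without musculus day 0 replicate 3). With genes with no masked probe alone, Folr1 is the 1 member left and 0 were called in every comparison, since the other members were not tested.

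The replicate numbers did not pair the arrays: of 45 pairs of same-numbered arrays in different groups 4 had deviations correlated over 0.1 (range -0.16 to 0.15), and 8 of 18 arrays were closest to their own number. With the replicate block 1 member was called for day 56 against day 14 in musculus in place of 2, and the number of members called in the other comparisons did not change. The count of pairs past the adjusted threshold was 0 in all 21 alternatives. The median rank of a member among all genes by correlation with another member was 363.5 and lay between 317 and 1294.5 with 1 array left out, the highest without spretus day 14 replicate 3; leaving out musculus day 56 replicate 3 gave 665.5, spretus day 0 replicate 1 gave 851, spretus day 0 replicate 2 gave 1051 and spretus day 14 replicate 2 gave 668.5. The causes were not tested.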
